A study of Homo sapiens with 21 samples.

Results

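MHC class I antigen presentation genes were examined across 21 RNA-seq libraries of BT-549 cells, an established triple-negative breast cancer (TNBC) line. The set is a list of gene names, with no threshold on measured values: the heavy chains HLA-B, HLA-C, HLA-E and HLA-F, the light chain B2M, the peptide transporter subunits TAP1 and TAP2, the immunoproteasome subunit PSMB9 and the transactivator NLRC5. Of these 9 genes, 8 had a row among the 42339 gene identifiers in the count table, and HLA-F was not analysed here. HLA-B had between 0 and 9 counts per library and never passed the low-count filter, so 7 genes were tested in every comparison.

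Each of 7 groups had 3 libraries. Wild-type BT-549 cells were grown as 2D monolayers, as 3D mammospheres at serial passage 6, or as such mammospheres with 0.75 µM GO-203, a peptide inhibitor directed at the cytoplasmic domain of MUC1-C. Mammospheres carrying tet-MUC1shRNA (passage 6) or tet-MYCshRNA (passage 8) received 0.1% DMSO as vehicle or 500 ng/ml doxycycline (DOX), which switches on the hairpin. Medium changed together with growth format, serum-containing RPMI1640 for 2D and MammoCult for 3D. A single hairpin served each target and libraries with DOX and a non-targeting hairpin were not used here, so a change with DOX cannot be told apart from the effect of DOX itself.

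MHC class I molecules display peptides from inside the cell to CD8 T cells. Proteasomes cut proteins into peptides, the TAP1-TAP2 transporter carries them into the endoplasmic reticulum, and a heavy chain binds a peptide together with beta-2 microglobulin before moving to the surface. Interferons raise most of these genes, partly through the transcription factor IRF1 and partly through NLRC5, which acts at class I promoters. Tumor cells often have lower levels of this machinery.

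Library totals ran from 38026597 to 99751717 counts (median 53548353), and the 21 replicate pairs differed by more than sampling noise. Replicate 1 of the MYC-silenced mammospheres stood apart, where chi-square divided by its degrees of freedom was 52.8 and 36.3 against its partners and 4.36 to 21.04 in the other pairs. Nothing in the labels names the replicates as separate experiments, so p-values measure the spread between these libraries. Of the labelled identity, ESR1 and PGR stayed at or below 1.48 CPM (counts per 1000000 library counts, with library totals scaled by TMM factors over all 21 libraries) and VIM was at 1075 CPM or more, while ERBB2 ranged from 18.4 to 42.0 CPM. The epithelial markers CDH1 and EPCAM did not exceed 1.51 CPM in tissue labelled as epithelial breast. All 8 leukocyte markers had a row, and their summed level ranged from 0.304 to 1.88 CPM over all libraries, with CD3E, LYZ and NKG7 at a median of 0.

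The silenced genes were checked first. MUC1 was at 101, 83.1 and 86.6 CPM with vehicle and at 19.7, 21.2 and 23.3 CPM with DOX in tet-MUC1shRNA mammospheres, a log2 fold change of -2.06 ± 0.07 (standard error). MYC was at 439, 418 and 386 CPM with vehicle and at 244, 279 and 297 CPM with DOX in tet-MYCshRNA mammospheres, a log2 fold change of -0.62 ± 0.08. The vehicle and DOX libraries did not overlap for either target. MYC was higher in 3D than in 2D cells (log2 fold change 2.76 ± 0.06), and MUC1 was too (1.93 ± 0.08). MUC1 also rose on MYC silencing (log2 1.25 ± 0.11, adjusted p = 5.1e-06, edgeR) and with GO-203 (0.33 ± 0.07, adjusted p = 0.00191), and MYC rose on MUC1 silencing (0.25 ± 0.04, adjusted p = 5.0e-05).

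The promoters of 4 class I genes that rose together on MYC silencing are shown here, because class I genes are known to share regulatory elements. Windows from 250 bases before to 50 bases after the start were taken from RefSeq (GRCh38.p14), and they were found for 7 of the 9 genes, with none for HLA-E and NLRC5. Capitals mark matches to an interferon-stimulated response element core (GAAANNGAAA) or a Y box (GATTGG, an inverted CCAAT box), on either strand.
B2M, chr15:44711267-44711566, plus strand: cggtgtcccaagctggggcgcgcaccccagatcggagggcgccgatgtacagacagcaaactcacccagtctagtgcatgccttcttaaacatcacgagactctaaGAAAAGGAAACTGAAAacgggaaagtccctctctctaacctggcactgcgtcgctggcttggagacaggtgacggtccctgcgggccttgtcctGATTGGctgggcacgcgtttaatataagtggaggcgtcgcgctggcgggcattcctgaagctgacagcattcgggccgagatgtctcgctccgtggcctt
TAP1, chr6:32853655-32853954, minus strand: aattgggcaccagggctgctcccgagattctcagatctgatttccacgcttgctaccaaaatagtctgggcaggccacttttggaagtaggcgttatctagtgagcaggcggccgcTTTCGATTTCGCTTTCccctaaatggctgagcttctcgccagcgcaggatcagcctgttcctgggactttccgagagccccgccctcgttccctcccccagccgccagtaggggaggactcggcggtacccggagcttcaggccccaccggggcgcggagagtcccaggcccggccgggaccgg
PSMB9, chr6:32853942-32854241, plus strand: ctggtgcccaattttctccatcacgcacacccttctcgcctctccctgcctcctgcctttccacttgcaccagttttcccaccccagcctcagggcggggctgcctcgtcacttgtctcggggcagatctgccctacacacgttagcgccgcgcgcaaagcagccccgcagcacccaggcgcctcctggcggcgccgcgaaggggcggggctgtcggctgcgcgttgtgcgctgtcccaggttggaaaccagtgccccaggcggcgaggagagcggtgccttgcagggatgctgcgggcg
HLA-C, chr6:31272043-31272342, minus strand: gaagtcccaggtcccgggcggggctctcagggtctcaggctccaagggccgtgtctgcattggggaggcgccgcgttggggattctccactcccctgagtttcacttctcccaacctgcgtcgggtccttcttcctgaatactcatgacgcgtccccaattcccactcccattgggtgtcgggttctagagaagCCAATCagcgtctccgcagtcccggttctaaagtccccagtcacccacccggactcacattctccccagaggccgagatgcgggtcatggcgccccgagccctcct

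The B2M window held 2 overlapping response element cores, whose first bases lay at -144 and -138 from the start, and a Y box at -50. The TAP1 window likewise held 2 overlapping cores, at -134 and -128 on the opposite strand. HLA-C held a Y box at -56, the same position as in HLA-B, which in addition held an NF-kB type enhancer A (GGGGANNCCCC) at -177. TAP2 held a core at -58, HLA-F a core at -156 and a Y box at -57, and PSMB9 held none of the 6 motifs. Among all 35116 RefSeq promoters of the same length, 3.57% held the core, 15.1% the Y box and 0.863% the enhancer A. TAP1 and PSMB9 are divergent neighbours, with 487 bases between their starts, and their windows share 13 bases. None of the windows of these genes held TGACGT, which occurs in 7.98% of promoters, or the E-box CACGTG, which occurs in 7.26%. TTCNNNGAA, a gamma-activated site found in 7.66% of promoters, occurred in a further TAP1 window at a downstream start and in none of the windows printed.

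In GRCh38 (GENCODE release 44), the heavy chain genes lie on chromosome 6, HLA-B at chr6:31353872-31367067 and HLA-C at chr6:31268749-31272130 on the minus strand and HLA-E at chr6:30489509-30494194 on the plus strand. TAP1 (chr6:32845209-32853816, minus), TAP2 (chr6:32821833-32838739, minus) and PSMB9 (chr6:32844136-32859851, plus) lie in the class II region of the same chromosome, whereas B2M is at chr15:44711358-44718851 (plus) and NLRC5 at chr16:56989485-57083531 (plus). Some annotated exon bases belong to other genes on the same strand, 32.7% for HLA-B, 19.5% for TAP2 and 5.21% for PSMB9. On the opposite strand, other genes share 14.2% of the exon bases of TAP1, 14.8% of HLA-B and 4.16% of PSMB9. The counts of these 4 genes are therefore less certain, since the strand and overlap settings of the counting are not given in the sources used here.

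The human MHC is also represented in hg38 by alternate contigs, and so is part of chromosome 15. When alternate contigs were left out, 99.4% to 100% of the exonic windows of 100 bases of each gene occurred once in the genome. When they were included, the share was 100% for NLRC5, 49.9% for HLA-B, 22.7% for HLA-C, 11.2% for B2M, 1.07% for TAP2 and 0% for HLA-E, TAP1 and PSMB9. NLRC5 was thus the only one of the 8 genes with every window unique in both versions. Whether the authors' index held these contigs is not given in the sources used here, and their part in the levels was not tested.

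**Figure D1:**
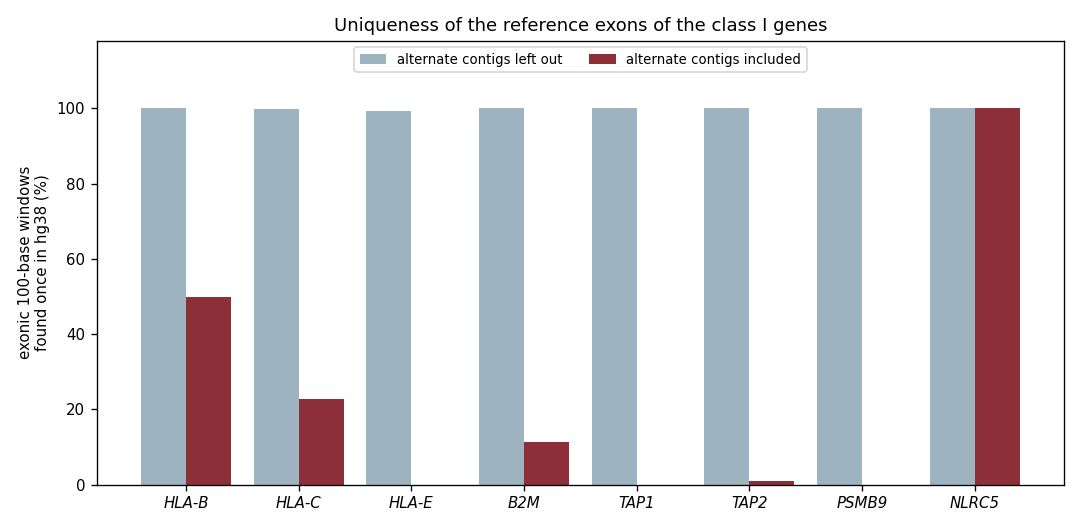
Share of annotated exonic 100-base windows (percent, vertical axis) that occur once in hg38 for 8 class I genes, with alternate contigs left out or included. With the contigs included, NLRC5 stays at 100% while HLA-E, TAP1 and PSMB9 are at 0%.

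Per kilobase of exon, B2M was the most abundant of the 8 genes, with a median of 61.2 CPM per kb over the 21 libraries. HLA-E followed at 3.41, TAP1 at 2.66, HLA-C at 0.994 and PSMB9 at 0.336 CPM per kb. NLRC5 (0.0930 CPM per kb), TAP2 (0.0339) and HLA-B (0.00978) were lowest. This order of medians did not hold in every group, since TAP1 was above HLA-E in MUC1-silenced mammospheres (means of 3.32 and 2.91 CPM per kb), NLRC5 was below TAP2 in 3D cells and in vehicle-treated tet-MUC1shRNA mammospheres, and HLA-B was above both in the latter. Counts behind these levels were large for B2M (6262 to 20670 per library), intermediate for TAP1 (415 to 1199) and HLA-E (356 to 836), and small for HLA-C (54 to 248), PSMB9 (26 to 218), NLRC5 (10 to 383) and TAP2 (5 to 35). PSMB9 counts were even numbers in 20 of 21 libraries, B2M counts in 19, HLA-C in 18, HLA-B in 17 and HLA-E in 16. TAP1 counts were even in 11, and TAP2 and NLRC5 counts in 10 each. Of all counts from 20 to 99 in a library, 59.2% to 66.3% were even. The origin of this excess was not tested.

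The order of the groups differed between genes. B2M, HLA-C, TAP1 and PSMB9 were highest in MYC-silenced mammospheres, NLRC5 and TAP2 in 2D cells, and HLA-E and HLA-B in vehicle-treated tet-MUC1shRNA mammospheres. B2M was at 334 ± 13.3 CPM (SD, n = 3) in MYC-silenced mammospheres, at 256 ± 14.8 CPM in vehicle-treated tet-MUC1shRNA mammospheres and at 206 ± 13.1 CPM in 2D cells, and these neighbours did not overlap. The lowest group of B2M, 3D cells (164 ± 6.83 CPM), overlapped the next lowest, the GO-203 group (171 ± 11.2 CPM). NLRC5 ranged from 0.326 ± 0.108 CPM in 3D cells to 6.13 ± 0.494 CPM in 2D cells. For TAP2 and HLA-C every group overlapped the next one in the order of means.

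**Figure D2:**
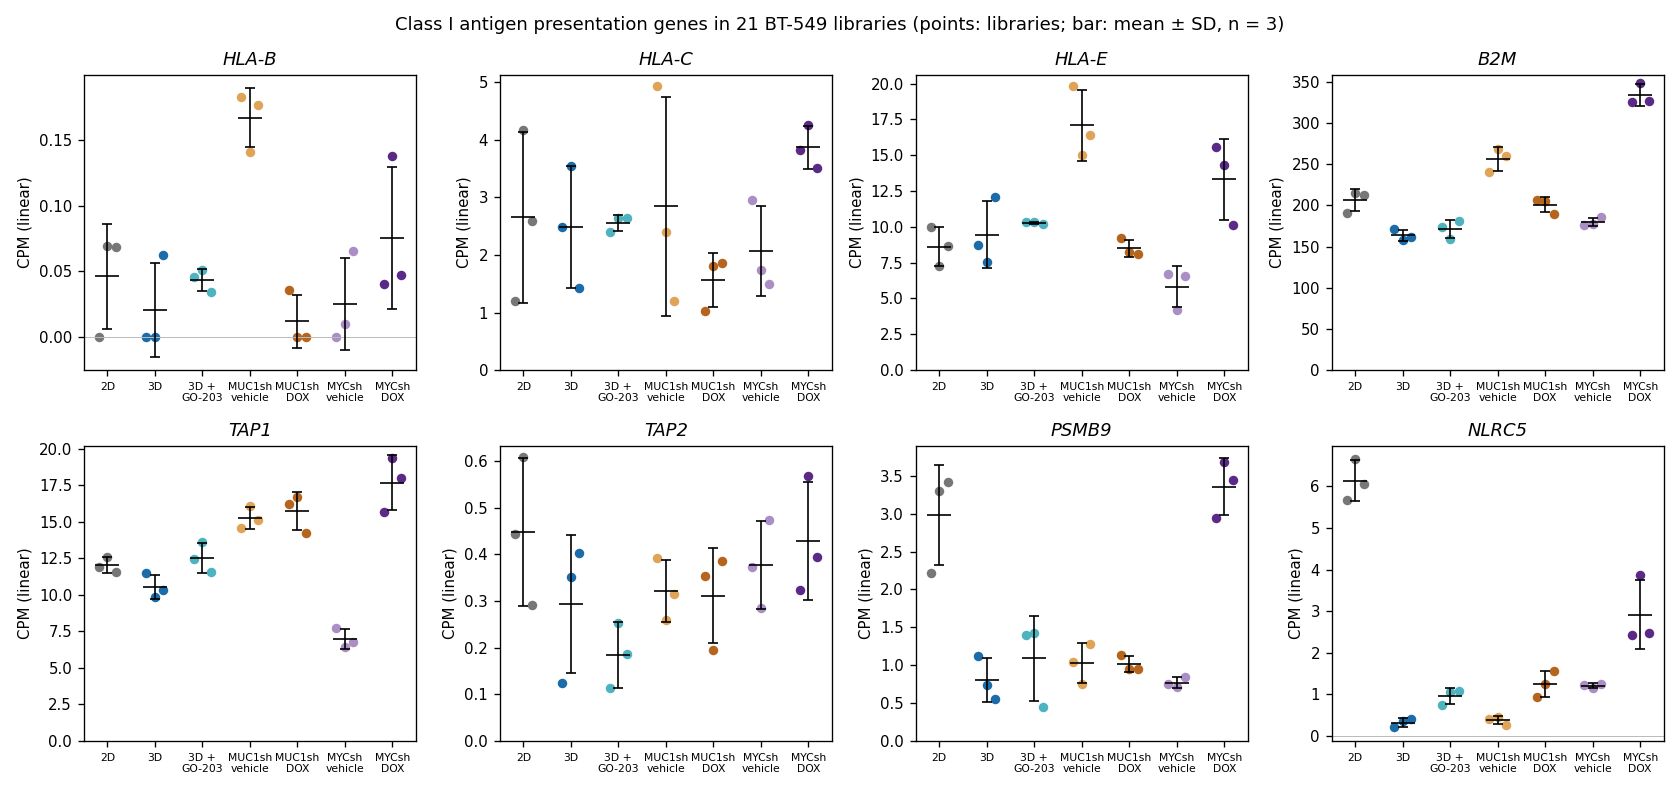
Level of each of 8 class I genes (CPM, linear axes that differ between panels) in the 7 groups, with 1 point per library and the mean ± SD of 3 libraries. NLRC5 is high in 2D cells and low in 3D cells, whereas B2M, TAP1 and PSMB9 have all 3 MYC-silenced libraries above their vehicle libraries.

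The first comparison asked how mammospheres differ from monolayers. NLRC5 and PSMB9 were strongly downregulated in 3D vs. 2D cells, B2M fell slightly, and none of the 7 tested genes was upregulated. NLRC5, the class I transactivator, was at 5.68, 6.66 and 6.07 CPM in 2D cells and at 0.208, 0.351 and 0.418 CPM in 3D cells. Every 3D library was far below every 2D library, and the 3D values rest on 10, 18 and 27 counts. The log2 fold change was -4.20 ± 0.23, or 18.4-fold lower (adjusted p = 1.1e-10, edgeR quasi-likelihood test with Benjamini-Hochberg adjustment over all genes, as for each adjusted p given here).

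PSMB9, which replaces a constitutive catalytic subunit in the immunoproteasome, was at 2.22, 3.30 and 3.42 CPM in 2D cells and at 1.12, 0.742 and 0.558 CPM in 3D cells. The groups did not overlap, and PSMB9 was 3.76-fold lower in 3D cells (log2 -1.91 ± 0.27, adjusted p = 1.3e-05). B2M was at 191, 215 and 213 CPM in 2D cells and at 171, 158 and 162 CPM in 3D cells. Again no library overlapped, yet the change was only 1.27-fold (log2 -0.34 ± 0.06, adjusted p = 1.4e-04). TAP1, at 11.9, 12.6 and 11.6 CPM in 2D cells, was at 11.5, 9.87 and 10.4 CPM in 3D cells. These groups did not overlap by a narrow margin, and the difference did not pass the threshold (log2 -0.19 ± 0.10, adjusted p = 0.110), although it did without 3D replicate 1 (log2 -0.23, adjusted p = 0.0956), with library size alone as the scaling (log2 -0.25, adjusted p = 0.0389) and under a minimum of 10 counts per library (log2 -0.22, adjusted p = 0.0705).

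The heavy chains gave no call. HLA-E, a nonclassical heavy chain that engages NK cell receptors, was at 9.96, 7.27 and 8.65 CPM in 2D cells and at 8.72, 7.57 and 12.1 CPM in 3D cells (log2 0.13 ± 0.16, adjusted p = 0.494). HLA-C was at 1.20, 4.17 and 2.60 CPM in 2D cells and at 2.49, 3.55 and 1.43 CPM in 3D cells (log2 -0.12 ± 0.36, adjusted p = 0.795). For both genes the groups overlapped. TAP2 gave a log2 fold change of -0.59 ± 0.49 (adjusted p = 0.319). In all, 3 of 7 tested genes fell at an adjusted p below 0.1, against 31.7% of all 19190 genes tested, and 0 rose, against 32.0%. NLRC5 and PSMB9 also passed a log2 fold change below -1.5, which 9.29% of all genes did, and 0 passed one above 1.5, against 6.9%. All 3D libraries were below all 2D libraries for 4 of the 7 genes (NLRC5, PSMB9, B2M and TAP1), against 31.9% of all genes, and above them for 0, against 32.3%. The median log2 fold change was -0.34 over the 7 genes and -0.01 over all genes tested. The summed leukocyte marker level was 1.13 to 1.88 CPM in 2D cells and 0.573 to 0.976 CPM in 3D cells, and its part in these changes was not tested.

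The second comparison asked what follows from MUC1 silencing in mammospheres. NLRC5 was upregulated with DOX against vehicle, while B2M and HLA-E were downregulated. The vehicle group itself was not at the level of wild-type 3D cells. Means were 17.1 against 9.45 CPM for HLA-E, 256 against 164 CPM for B2M and 90.3 against 207 CPM for MUC1. With DOX the means were 8.51 CPM for HLA-E and 201 CPM for B2M. The differences between vehicle-treated and wild-type 3D libraries were not tested. NLRC5 was at 0.418, 0.447 and 0.275 CPM with vehicle and at 0.938, 1.24 and 1.57 CPM with DOX. All DOX libraries were higher, by 3.34-fold (log2 1.74 ± 0.33, adjusted p = 1.2e-04), on counts of 14 to 19 with vehicle and 53 to 89 with DOX. HLA-E was at 19.8, 15.01 and 16.4 CPM with vehicle and at 9.20, 8.24 and 8.08 CPM with DOX. It was thus lower in each DOX library, by 1.97-fold (log2 -0.98 ± 0.10, adjusted p = 3.7e-08).

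B2M was at 240, 269 and 261 CPM with vehicle and at 207, 206 and 190 CPM with DOX. The groups did not overlap, and the decrease was 1.26-fold (log2 -0.33 ± 0.05, adjusted p = 4.6e-06), with a log2 fold change of -0.16 when scaled by library size alone (adjusted p = 0.00532). HLA-C was at 4.93, 2.40 and 1.20 CPM with vehicle and at 1.03, 1.81 and 1.86 CPM with DOX. These groups overlapped, and the call (log2 -0.81 ± 0.34, adjusted p = 0.0488) rested on single libraries, with a log2 fold change of -0.17 (adjusted p = 0.662) without vehicle replicate 1 and -0.58 (adjusted p = 0.213) without DOX replicate 1. HLA-B had 7, 6 and 9 counts with vehicle and 2, 0 and 0 counts with DOX. It did not pass the filter, and in the fit without a filter it was the further gene among 4 that fell.

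The transporter and the immunoproteasome subunit gave no call on MUC1 silencing. TAP1 was at 14.6, 16.1 and 15.1 CPM with vehicle and at 16.2, 16.7 and 14.3 CPM with DOX (log2 0.07 ± 0.08, adjusted p = 0.489). PSMB9 was at 1.04, 0.753 and 1.28 CPM with vehicle and at 1.13, 0.947 and 0.953 CPM with DOX (adjusted p = 0.991). The groups overlapped for both genes, and for TAP2 as well (adjusted p = 0.945). In all, 1 of 7 genes rose, against 30.7% of all genes tested, and 3 fell, against 31.6%. A log2 fold change above 1.5 was passed by NLRC5 alone, against 5.74% of all genes, and one below -1.5 by 0, against 3.08%. The groups did not overlap for 1 gene that was higher with DOX, against 29.6% of all genes, and for 2 that were lower, against 32.8%. The median log2 fold change was -0.04 over the 7 genes and 0.02 over all genes. The summed leukocyte marker level was 1.02 to 1.51 CPM with vehicle and 1.04 to 1.57 CPM with DOX.

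The third comparison asked what GO-203 does to mammospheres. It shares its 3D libraries with the comparison of 3D and 2D cells. NLRC5 was higher with GO-203, at 0.746, 1.07 and 1.09 CPM against 0.208, 0.351 and 0.418 CPM without it. All treated libraries were above all untreated ones, with a fold of 2.98 (log2 1.58 ± 0.37, adjusted p = 0.00405), and all 3 treated libraries remained far below the 2D range. TAP1 was at 12.4, 13.6 and 11.6 CPM with GO-203, against 11.5, 9.87 and 10.4 CPM. Its rise of 1.21-fold (log2 0.28 ± 0.10, adjusted p = 0.0661) did not pass without 3D replicate 2 or 3 or without GO-203 replicate 1 or 2, where the adjusted p ranged from 0.141 to 0.254.

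The other class I genes gave no call with GO-203. PSMB9 was at 1.40, 1.42 and 0.442 CPM, overlapping the untreated 1.12, 0.742 and 0.558 CPM (log2 0.45 ± 0.38, adjusted p = 0.481). B2M was at 174, 159 and 181 CPM (log2 0.10 ± 0.06, adjusted p = 0.297). HLA-E was at 10.3, 10.3 and 10.2 CPM (log2 0.15 ± 0.13, adjusted p = 0.487), HLA-C gave 0.08 ± 0.25 (adjusted p = 0.871) and TAP2 gave -0.66 ± 0.57 (adjusted p = 0.495). All 5 overlapped their untreated libraries, and HLA-E passed without 3D replicate 3 (log2 0.36, adjusted p = 0.0370). In all, 2 of 7 genes rose, against 11.1% of all genes tested, and 0 fell, against 12.9%. NLRC5 alone of the 7 also passed a log2 fold change above 1.5, as 0.498% of all genes did, and 0 passed one below -1.5, against 0.26%. Groups did not overlap for 2 genes that were higher with GO-203, against 13.3% of all genes, and for 0 that were lower, against 19.8%. The summed leukocyte marker level was lower with GO-203, at 0.304 to 0.475 CPM against 0.573 to 0.976 CPM.

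The fourth comparison asked what follows from MYC silencing in mammospheres. The class I genes rose across the steps of the pathway: tested heavy chains, light chain, transporter subunit TAP1, immunoproteasome subunit and transactivator. Of 7 tested genes, 6 rose and 0 fell, against 30.3% and 28.1% of all 19951 genes tested, and TAP2 was the one without a call. The same 6 genes had all 3 DOX libraries above all 3 vehicle libraries, as 31.2% of all genes did, and 0 genes had them all below, against 28.3%. No log2 fold change was below -1.5, against 3.39% of all genes. Without DOX replicate 1, which stood apart from its partners, 6 genes rose and 0 fell. The median log2 fold change was 1.18 over the 7 genes and 0.01 over all genes tested.

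PSMB9 rose most, from 0.745, 0.709 and 0.849 CPM with vehicle to 2.94, 3.68 and 3.44 CPM with DOX. The change was 4.33-fold (log2 2.11 ± 0.19, adjusted p = 6.1e-06), and PSMB9 was the only one of the 7 above a log2 fold change of 1.5, which 7.06% of all genes passed. Its divergent neighbour TAP1 rose from 7.73, 6.44 and 6.77 CPM to 15.7, 19.4 and 18.0 CPM. This was a 2.50-fold increase (log2 1.32 ± 0.12, adjusted p = 6.9e-06). NLRC5 rose from 1.22, 1.15 and 1.26 CPM to 2.42, 3.87 and 2.46 CPM, or 2.38-fold (log2 1.25 ± 0.22, adjusted p = 8.1e-04). Without DOX replicate 1 the log2 fold changes were 2.20 for PSMB9, 1.40 for TAP1 and 1.36 for NLRC5, and 1.05 for HLA-E, 0.89 for HLA-C and 0.89 for B2M.

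HLA-E rose from 6.73, 4.17 and 6.58 CPM to 15.5, 14.3 and 10.1 CPM, or 2.26-fold (log2 1.18 ± 0.21, adjusted p = 8.0e-04). HLA-C rose from 2.95, 1.74 and 1.502 CPM to 3.83, 4.27 and 3.51 CPM, or 1.84-fold (log2 0.88 ± 0.24, adjusted p = 0.0105). The lowest DOX library of HLA-C stood above the highest vehicle library by less than 1 CPM. B2M rose from 176, 178 and 186 CPM to 325, 349 and 327 CPM, or 1.83-fold (log2 0.87 ± 0.06, adjusted p = 9.5e-07). TAP2 was at 0.373, 0.286 and 0.473 CPM with vehicle and at 0.323, 0.568 and 0.395 CPM with DOX, and these groups overlapped (log2 0.18 ± 0.38, adjusted p = 0.719). HLA-B had 0, 1 and 4 counts with vehicle and 2, 8 and 3 counts with DOX, and gave no call in the fit without a filter. The summed leukocyte marker level was 0.466 to 0.670 CPM with vehicle and 0.648 to 0.895 CPM with DOX, and its part in these changes was not tested.

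**Figure D3:**
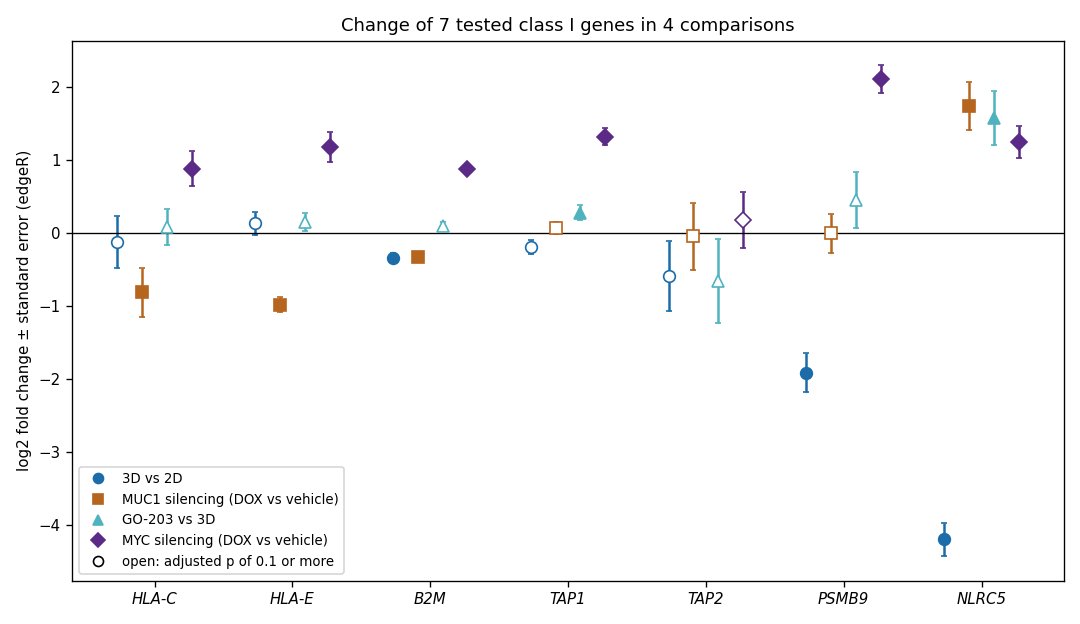
Log2 fold change ± standard error (vertical axis, edgeR) of the 7 tested class I genes in the 4 comparisons. Filled symbols have an adjusted p below 0.1: on MYC silencing 6 of 7 genes are filled above 0, and in 3D vs. 2D cells NLRC5 lies at -4.20.

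Whether the silencing of MUC1 and of MYC moved these genes differently was tested as an interaction over the 12 tet-line libraries. The difference passed for 5 of 7 genes (6 with HLA-B in the fit without a filter), against 52.9% of all 21585 genes tested, and in each of the 5 the log2 change was lower on MUC1 silencing, as it was in 26.9% of all genes. Without MYC-silenced replicate 1 the difference also passed for 5 genes. The difference of the log2 fold changes, MUC1 silencing minus MYC silencing, was -2.17 ± 0.25 for HLA-E (adjusted p = 9.4e-07) and -1.22 ± 0.08 for B2M (adjusted p = 7.7e-10). HLA-E, B2M and HLA-C were called in opposite directions on the 2 treatments, the HLA-C difference being -1.71 ± 0.52 (adjusted p = 0.0114). For HLA-C the call on MUC1 silencing was lost with DESeq2, with library size alone and without vehicle replicate 1 or DOX replicate 1. For PSMB9 (-2.13 ± 0.31, adjusted p = 1.5e-05) and TAP1 (-1.27 ± 0.15, adjusted p = 1.2e-06), only MYC silencing gave a call.

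NLRC5 rose on both treatments, and its changes did not pass the test of a difference (0.48 ± 0.38, adjusted p = 0.335). TAP2 did not pass it either (-0.24 ± 0.58, adjusted p = 0.770). The vehicle levels of the tet lines were unequal before any silencing. HLA-E was at 17.1 ± 2.48 CPM (SD, n = 3) in vehicle-treated tet-MUC1shRNA mammospheres and at 5.83 ± 1.43 CPM in vehicle-treated tet-MYCshRNA mammospheres, and TAP1 was at 15.3 ± 0.782 and 6.98 ± 0.671 CPM. NLRC5 had the opposite order, at 0.380 ± 0.0918 and 1.21 ± 0.0537 CPM. None of these 3 pairs overlapped. The lines differ in hairpin and in passage, which cannot be told apart.

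A wider list of 64 antigen presentation and interferon genes, of which 60 had a row, was set beside these genes. On MYC silencing 27 of 53 tested genes of the list rose, against 30.3% of all genes, and 11 fell, against 28.1%, with a median log2 fold change of 0.45. Set against the same 30.3%, the rises by role were in peptide loading and trimming (6 of 7 tested), class I-like and other heavy chain genes (7 of 11), interferon signalling (10 of 12) and the immunoproteasome and its activator (3 of 4). The constitutive proteasome subunits PSMB5, PSMB6 and PSMB7 all fell, and of 11 transcriptional regulators of class I 6 fell and 1 rose. MR1, which presents vitamin B metabolites, rose from 5.72 ± 0.543 to 35.0 ± 1.16 CPM (log2 2.59 ± 0.10, adjusted p = 2.9e-08), TAPBPL, a peptide editor, from 2.86 ± 0.263 to 14.5 ± 3.61 CPM (log2 2.32 ± 0.18, adjusted p = 2.7e-06) and STAT2 from 15.2 ± 0.462 to 53.7 ± 4.61 CPM (log2 1.80 ± 0.09, adjusted p = 1.1e-07). CIITA, the class II transactivator, fell by 1.04 on the log2 scale (adjusted p = 3.0e-04), RFX5, a DNA-binding partner of NLRC5 and CIITA, fell by 0.93 (adjusted p = 1.7e-06), and NFKB1 fell by 0.69 (adjusted p = 2.3e-05).

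In 3D vs. 2D cells 7 of 48 tested genes of the list rose, against 32.0% of all genes, and 23 fell, against 31.7%, with a median log2 fold change of -0.24. Peptide loading and trimming genes fell in 6 of 7 cases. JAK2, a kinase of interferon receptors, fell from 55.5 ± 2.00 to 14.6 ± 0.251 CPM (log2 -1.94 ± 0.07, adjusted p = 3.2e-13), HFE fell by 1.55 on the log2 scale and the immunoproteasome subunit PSMB8 fell by 1.27. RELA rose by a log2 of 0.78, NFKB1 by 0.49 and IFNGR2, a chain of the interferon gamma receptor, by 0.38.

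On MUC1 silencing 13 of 49 tested genes of the list rose, near the 30.7% of all genes, and 21 fell, against 31.6%, with a median log2 fold change of -0.16. MR1 rose by a log2 of 1.60, the interferon-responsive factor IRF1 by 0.70 and RFXAP by 0.68, while PSMB5 fell by 1.87, IFNGR1 by 0.88 and the loading chaperone CALR by 0.84. By role, 5 of 7 tested genes of peptide loading and trimming fell and 0 rose, 6 of 9 class I-like and other heavy chain genes fell and 1 rose, and of 11 transcriptional regulators 3 fell and 6 rose. With GO-203 13 of 48 rose, against 11.1% of all genes, and 10 fell, against 12.9%. The rises numbered 6 without 3D replicate 1, 6 without GO-203 replicate 1 and 5 without GO-203 replicate 3, and the falls numbered 4 without 3D replicate 1, 6 without 3D replicate 3 and 6 without GO-203 replicate 2. IFNGR1 rose by a log2 of 0.46, IRF1 by 0.45 and MR1 by 0.45, while RFX5 fell by 0.38, RFXANK by 0.33 and PSMB7 by 0.26.

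**Figure D4:**
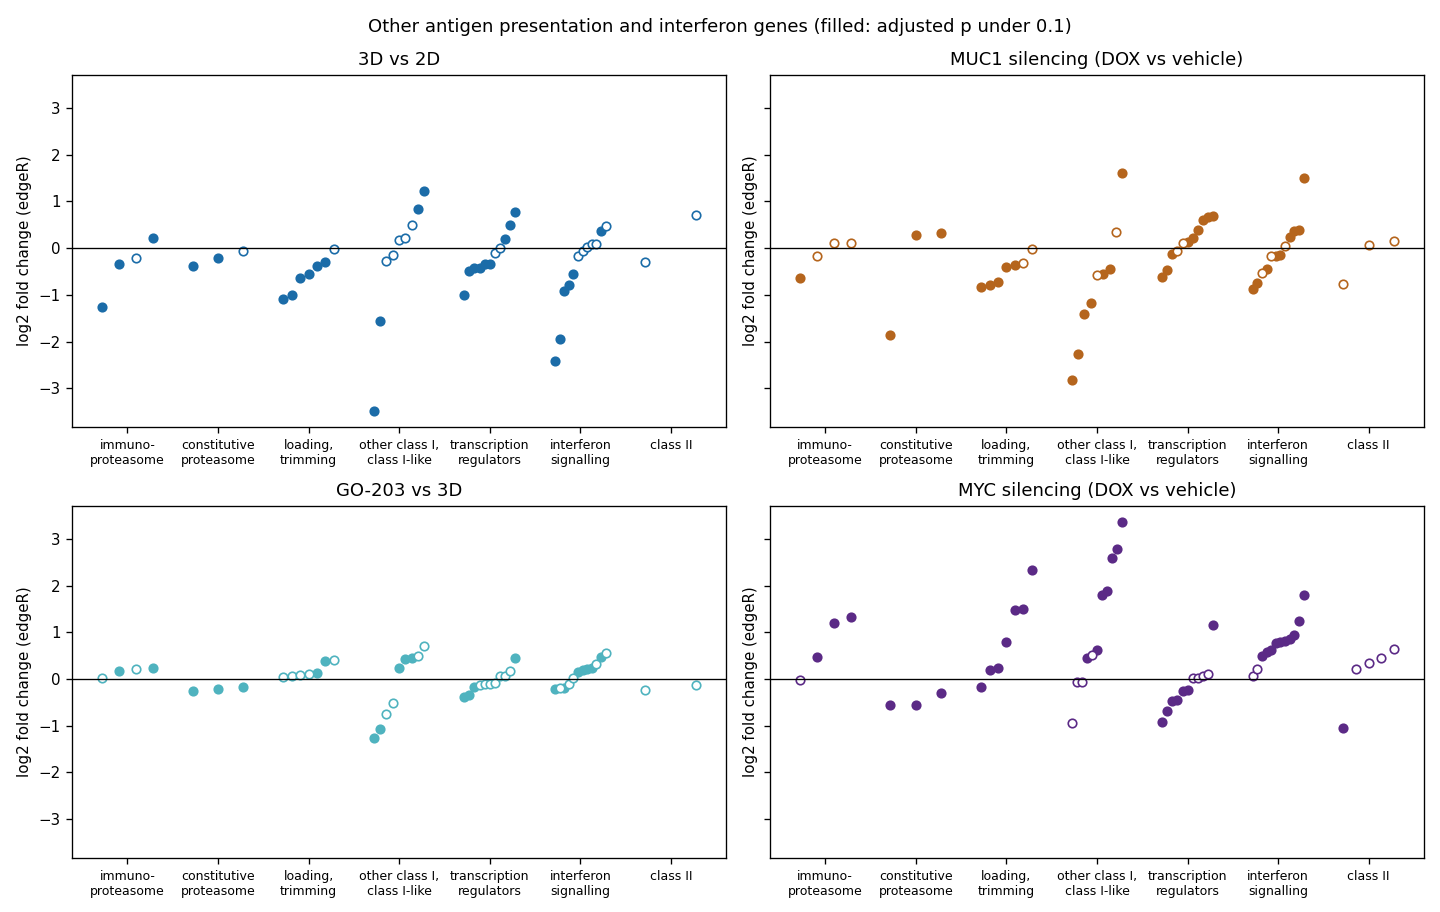
Log2 fold change (vertical axis, edgeR) of the tested genes of the wider list in the 4 comparisons, by role. Filled points have an adjusted p below 0.1: on MYC silencing 10 of 12 interferon signalling genes and 6 of 7 loading and trimming genes are filled above 0.

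The genes outside these lists whose levels were most like the mean standardized log2 CPM of the 7 class I genes over the 21 libraries were GM2A (Pearson r = 0.930), NUPR1 (0.925), SHISA4 (0.906), ULK1 (0.903), TTC28 (0.903) and TINF2 (0.903). These r values describe 21 libraries in 7 groups that share treatments, and they carry no test. GM2A, an activator protein for lysosomal ganglioside breakdown, was at 82.3 CPM in MYC-silenced mammospheres, 35.5 CPM in 2D cells and 17.6 CPM in 3D cells. Among the 7 genes themselves, the correlation with their mean was highest for B2M (0.851) and PSMB9 (0.817) and lowest for TAP2 (0.503).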

How the data were processed

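Stranded, paired-end mRNA libraries from 21 BT-549 cultures were sequenced. The authors deposited raw read counts per gene, obtained with STAR (version 2.7.3a in the submitters' processing notes, while the study's methods name a different one) and featureCounts on GRCh38. The annotation release, strand setting and handling of multiply mapped reads are not given in the sources used here. Genes without a value in a block of libraries (4952 to 7587) were read as 0. Identifiers without a symbol stayed in the tests.

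Pairwise fits on the 6 libraries of a comparison were made with edgeR 4.0.16 (R 4.3.3): filterByExpr, TMM factors and the quasi-likelihood test, with Benjamini-Hochberg adjustment over all genes tested and calls at an adjusted p below 0.1. A log2 fold change beyond 1.5 was counted beside it. Standard errors are the absolute log2 fold change divided by the square root of F. The interaction was fitted over 12 libraries. Plotted and printed CPM values were scaled over all 21 libraries. Every gene of the class I set was named, together with MUC1 and MYC, up to 3 called genes of the wider list per comparison and direction (those that moved most, at a mean normalized count of at least 100), and the 6 genes of most similar level. Some genes of the lists are not reported here by name. The class I set and the lists were chosen with earlier results of these data known. Replicate numbers did not pair libraries (mean correlation of deviations from -0.11 to 0.06). The alternatives were DESeq2 1.42.0, RLE factors, library size alone, a joint fit of all 21 libraries, no filter, a minimum of 10 counts per library, a replicate block, an adjusted p below 0.05, a log2 fold change beyond 1.5 and leaving out each library in turn. The fits were tested on simulated data. Exonic windows of 100 bases were searched in hg38.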

Additional observations from a re-analysis of the deposited data

Results flagged for a closer look

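In 5 class I genes the change on MUC1 silencing and the change on MYC silencing differed by the interaction test over 12 libraries. The difference in log2 fold change, MUC1 silencing minus MYC silencing, was -1.71 for HLA-C, -2.17 for HLA-E, -1.22 for B2M, -1.27 for TAP1 and -2.13 for PSMB9. Differences passed for 52.9% of all genes tested.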

How the results depend on the processing

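Of the 20 called changes of the class I genes, 281 of 290 settings kept direction and call, 9 lost the call and 0 reversed. The lost calls were those of TAP1 with GO-203, where the fit of all 21 libraries gave 0.25 (adjusted p = 0.118, edgeR), and HLA-C on MUC1 silencing, where DESeq2 gave -0.83 (adjusted p = 0.263), library size alone -0.64 (adjusted p = 0.112), and the fits without vehicle replicate 1 and without DOX replicate 1 gave -0.17 and -0.58. The other single libraries left out kept that call, with values down to -1.20. Scaling by library size alone moved the median of all genes on MUC1 silencing to 0.19 and added TAP1 (0.23, adjusted p = 0.0161), making 2 genes that rose. In 3D against 2D, TAP1 gained a call with library size alone and with at least 10 counts, making 4 genes that fell.

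Among the changes without a call, TAP2 on MUC1 silencing became 0.12 with library size alone, and PSMB9 became 0.000651 with DESeq2, 0.16 with library size alone, 0.0452 with at least 10 counts and 0.0254 with the replicate block. Leaving out single libraries reversed HLA-C (-0.46 to 0.37) and HLA-E (-0.0734 to 0.29) for 3D against 2D, TAP2 (-0.22 to 0.24) and PSMB9 (-0.19 to 0.20) on MUC1 silencing, HLA-C with GO-203 (-0.22 to 0.44), TAP2 on MYC silencing (-0.0724 to 0.35) and TAP2 in the interaction (-0.43 to 0.0274). The cause was not tested.

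With a log2 fold change beyond 1.5 as well, the genes of the wider list that rose and fell numbered 0 and 4 for 3D against 2D, 2 and 3 on MUC1 silencing, 0 and 0 with GO-203, and 8 and 0 on MYC silencing, and of the class I genes 0 fell on MUC1 silencing, 1 rose with GO-203 and 1 rose on MYC silencing. With GO-203, 1 class I gene rose in the fit of all 21 libraries and at an adjusted p below 0.05, and 1 to 2 rose when single libraries were left out (1 without 3D replicate 2, GO-203 replicate 1 or GO-203 replicate 2). In the wider list with GO-203, 8 genes rose in the fit of all 21 libraries, 7 without a filter and 7 at an adjusted p below 0.05, where 6 fell, and leaving out single libraries gave 5 (without GO-203 replicate 3) to 12 that rose and 4 (without 3D replicate 1) to 10 that fell. TAP2 could not be fitted with at least 10 counts in every library in 3D vs. 2D cells or with GO-203. The replicate numbers did not pair the libraries, and the replicate block changed no call of a class I gene. Low counts limit what can be said of HLA-B, at 0 to 9 per library, TAP2, at 5 to 35, and NLRC5 in 3D cells, at 10 to 27.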
